A study of Mus musculus with 6 samples.

Results

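The platelet-derived growth factor (PDGF) receptors Pdgfra and Pdgfrb and the ligands Pdgfa, Pdgfb and Pdgfc were read on 11 probe sets of the Mouse 430 2.0 array. These are all the probe sets whose only gene symbol in the array's annotation is one of the 5 genes. The array holds 34945 such single-gene probe sets, for 18193 genes. Pdgfra has 3 probe sets, and the other 4 genes have 2 each. A2.Snail cells are mouse embryonic stem cells (ESCs) derived from the A2lox line, in which doxycycline (dox) turns on a Snail transgene. Snail is a zinc finger repressor that drives the epithelial-to-mesenchymal transition (EMT). The cells were grown as embryoid bodies, floating aggregates of differentiating ESCs, in serum medium with DKK, a Wnt inhibitor, in every culture. The DKK + dox cultures received 250 ng/mL dox on day 2, and the DKK cultures received none. RNA was taken 6, 12 and 24 hours later (days 2.25, 2.5 and 3), and each of the 6 conditions was read on 1 array. All arrays came from 1 transgenic line, and no dox-treated cells lacking the transgene were analysed here, so dox itself and Snail cannot be told apart. ESCs were kept on irradiated mouse embryonic fibroblasts and passaged once without them before differentiation. The study also displayed Pdgfrb among genes taken from these same arrays, so its direction is not independent evidence. Apart from the arrays, the paper followed PDGFRα protein by flow cytometry in A2.Snail cells from day 3 on. It reported that Snail induced this protein, also with DKK. That is a protein measure, mostly at later times, and was not read here.

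PDGF ligands are secreted dimers that bring 2 receptor chains together, after which the receptors phosphorylate each other on tyrosine and recruit signaling proteins. PDGFRα is bound by the A, B and C chains, and PDGFRβ mainly by the B chain. In the mouse embryo, Pdgfra is known as a marker of primitive endoderm and of paraxial and other mesoderm, with Pdgfa made by neighboring epithelia, while Pdgfrb marks pericytes and smooth muscle cells, whose recruitment depends on Pdgfb from endothelium.

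Snail binds the E-box CAGGTG, so the 250 bases upstream of the annotated starts were examined (RefSeq windows, assembly GRCm38.p6). The table used here has 4 windows for 3 of the 5 genes, 2 of them for Pdgfa. They are shown for Pdgfra, the receptor with a window, and for the 2 ligands that were lower with time in both conditions, each 5′ to 3′ on the gene's own strand, with GC boxes (GGGCGG or its reverse complement CCGCCC) in capitals.
Pdgfra, chr5:75152001-75152250, plus strand: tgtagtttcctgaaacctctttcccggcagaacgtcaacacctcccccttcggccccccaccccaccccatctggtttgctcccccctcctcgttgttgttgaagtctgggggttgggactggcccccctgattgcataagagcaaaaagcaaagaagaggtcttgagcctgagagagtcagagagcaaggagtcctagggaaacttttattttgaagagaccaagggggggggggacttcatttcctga
Pdgfa, chr5:138994945-138995194, minus strand: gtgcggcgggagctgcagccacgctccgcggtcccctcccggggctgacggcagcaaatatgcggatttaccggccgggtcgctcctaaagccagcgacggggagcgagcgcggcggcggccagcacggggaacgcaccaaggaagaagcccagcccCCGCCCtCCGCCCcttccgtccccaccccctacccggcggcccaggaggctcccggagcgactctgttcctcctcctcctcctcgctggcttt
Pdgfc, chr3:81036166-81036415, plus strand: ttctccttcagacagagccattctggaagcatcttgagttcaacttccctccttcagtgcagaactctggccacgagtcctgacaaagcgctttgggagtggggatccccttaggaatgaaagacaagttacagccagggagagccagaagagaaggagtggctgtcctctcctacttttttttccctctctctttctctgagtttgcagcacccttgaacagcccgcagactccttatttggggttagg
None of the 4 windows held CAGGTG or its reverse complement CACCTG, which 17.2% of 32817 such windows did. The Pdgfa window printed here held 2 GC boxes, and the other Pdgfa window held 1. The Pdgfra and Pdgfc windows held none, against 32.7% of all windows with at least 1. GC content was 54.4% for Pdgfra, 72.4% and 66.4% for Pdgfa and 50.8% for Pdgfc, with a median of 52.4% over all windows. A match or its absence describes these letters only and says nothing of binding.

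The values are dChip intensities on a linear scale. A probe set was taken as low where it did not exceed 37.2, the 40th percentile of all values. For differences, 20.6 (the 25th percentile) was added before taking log2, written log2(intensity + 20.6). This understates the change of low signals. limma was run on the 26362 probe sets that exceeded the limit on 1 or more arrays. Its model had a level for each time and a DKK + dox minus DKK difference proportional to the hours since dox. The fitted value is that difference at 24 hours, with its standard error (SE) and an adjusted p over all 26362. Each condition and time has 1 array, so single-time differences carry no replicate check. The p-values test the fitted difference against no difference. Their error term draws on the departure of the 6 arrays from the model, with no spread between replicate cultures. The 6 hour arrays stood apart. In DKK + dox, 1397 probe sets differed at least 2-fold between 6 and 12 hours against 582 between 12 and 24 hours, and in DKK the counts were 1435 and 191. The Snai1 probe set stayed under the limit on all 6 arrays (29.6, 18.8 and 14.5 in DKK + dox, and 32.9, 16.6 and 10.9 in DKK), so it does not check the labels.

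Both PDGF receptors were higher in DKK + dox than in DKK on their brightest probe set, and no ligand passed the test. Of the 11 probe sets, 8 exceeded the limit on at least 1 array and were tested, of which 2 rose, 0 fell and 6 missed the threshold (limma adjusted p under 0.05). Here and below, rose and fell mean passing as higher or lower in DKK + dox than in DKK, whatever the change over time. At an unadjusted p under 0.05 the counts were the same, 2 higher and 0 lower, where 14.4% of all tested were higher and 11.8% lower. Over all tested probe sets, 6.81% passed as higher in DKK + dox and 5.12% as lower. Both that rose were among the 3 tested receptor probe sets, with none among the 5 tested ligand probe sets. Over the 3 tested receptor probe sets the differences at 24 hours were 2.09, 1.67 and -0.15. Their median of 1.67 is thus the value of 1 Pdgfrb probe set. The 2 receptor probe sets that were not tested had 0.52 and -0.21. The median was -0.01 over the tested ligand probe sets, beside 0.02 over all tested.

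**Figure D1:**
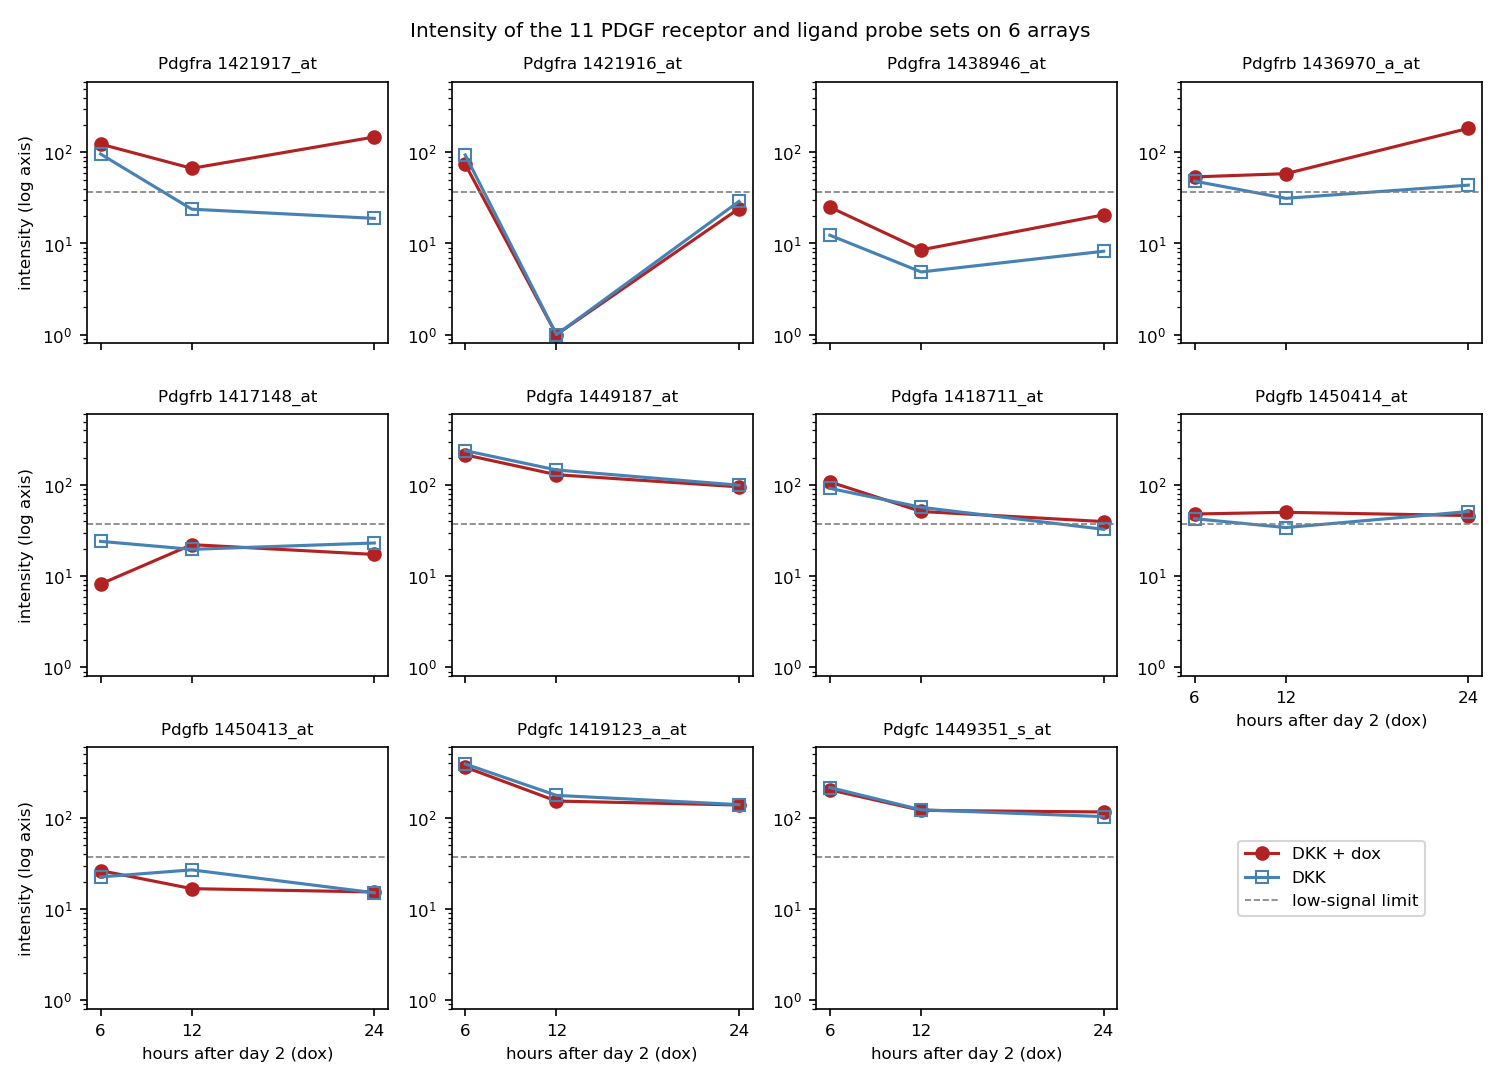
Intensity (log axis) of each of the 11 probe sets against hours after dox, with DKK + dox as filled red circles, DKK as open blue squares and the low-signal limit of 37.2 dashed. Each point is 1 array. The conditions part on Pdgfra 1421917_at and Pdgfrb 1436970_a_at, to 148 against 18.9 and 183 against 43.7 at 24 hours, while the lines of the Pdgfa and Pdgfc probe sets run close together.

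Pdgfra encodes PDGFRα. On probe set 1421917_at its intensity was 123, 66.8 and 148 in DKK + dox at 6, 12 and 24 hours, against 96.0, 23.8 and 18.9 in DKK. The DKK + dox array was higher at each time, and the gap widened at each step. The ratios were 1.29 and 2.81 at 6 and 12 hours and 7.82 at 24 hours. Since the DKK arrays were under the limit at 12 and 24 hours, the ratio is firm only as at least 1.80-fold at 12 hours and at least 3.97-fold at 24 hours, against the limit itself. The fitted difference was 2.02 (SE 0.21, adjusted p = 0.00171 from limma over 6 arrays, higher at 3 of 3 times). Among all probe sets of an array, it stood at the 67.4th percentile in DKK + dox at 24 hours and at the 23.0th percentile in DKK.

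The 2 conditions did not contribute to this gap alike. Between 6 and 24 hours, Pdgfra moved by 0.22 in DKK + dox on the log2 scale, against -1.56 in DKK. Its 24 hour level in DKK + dox was 1.20 times its own 6 hour level, against 0.197 times in DKK. As the DKK arrays were under the limit from 12 hours, the DKK ratio is firm only as at most 0.387, and the log2 change as -1.01 or lower. In DKK + dox the level dipped at 12 hours and was regained by 24 hours, whereas in DKK it was under the limit at both later times. On the measured values the log2 gap widened by 1.79 between 6 and 24 hours, mostly through the change in DKK. In bulk RNA, fewer cells of a type and less RNA per cell cannot be told apart.

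Pdgfrb encodes PDGFRβ. Probe set 1436970_a_at, which reads several transcript forms of the gene, had intensities of 53.8, 58.4 and 183 in DKK + dox, against 48.4, 31.3 and 43.7 in DKK. The arrays were nearly level at 6 hours, and at 24 hours the DKK + dox array stood 4.20 times above the DKK array. The fitted difference was 1.52 (SE 0.24, adjusted p = 0.00664 from limma over 6 arrays, higher at 3 of 3 times). Here the gap at 24 hours came from DKK + dox. The log2 change between 6 and 24 hours was 1.46 in DKK + dox, against -0.10 in DKK, a value near 0 that turned to 0.02 with quantile normalization and 0.05 with arrays centered on the median. The gap opened mainly after 12 hours: the difference between conditions was 0.11 at 6 hours, 0.61 at 12 hours and 1.67 at 24 hours.

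At single times, 0 of the 8 tested member probe sets differed 2-fold at 6 hours, when 0.209% of all tested were 2-fold higher and 0.429% 2-fold lower in DKK + dox. The count was 0 again at 12 hours, when the shares were 1.2% higher and 1.98% lower. Pdgfra 1421917_at lay just under 2-fold there, at 0.98. At 24 hours 2 were at least 2-fold higher and 0 lower, against 2.95% higher and 1.84% lower of all tested. Both calls depended on the 24 hour arrays: without that pair the fitted differences were 1.81 for Pdgfra (adjusted p = 0.0593 from limma) and 1.06 for Pdgfrb (adjusted p = 0.307), and neither passed. Without the 6 hour pair, which stood apart, both passed, at 2.06 (adjusted p = 0.00326) and 1.57 (adjusted p = 0.00809). Neither passed in a model with 1 constant difference for all 3 times (adjusted p = 0.117 and 0.192) or with time as a line (0.103 and 0.0746).

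**Figure D2:**
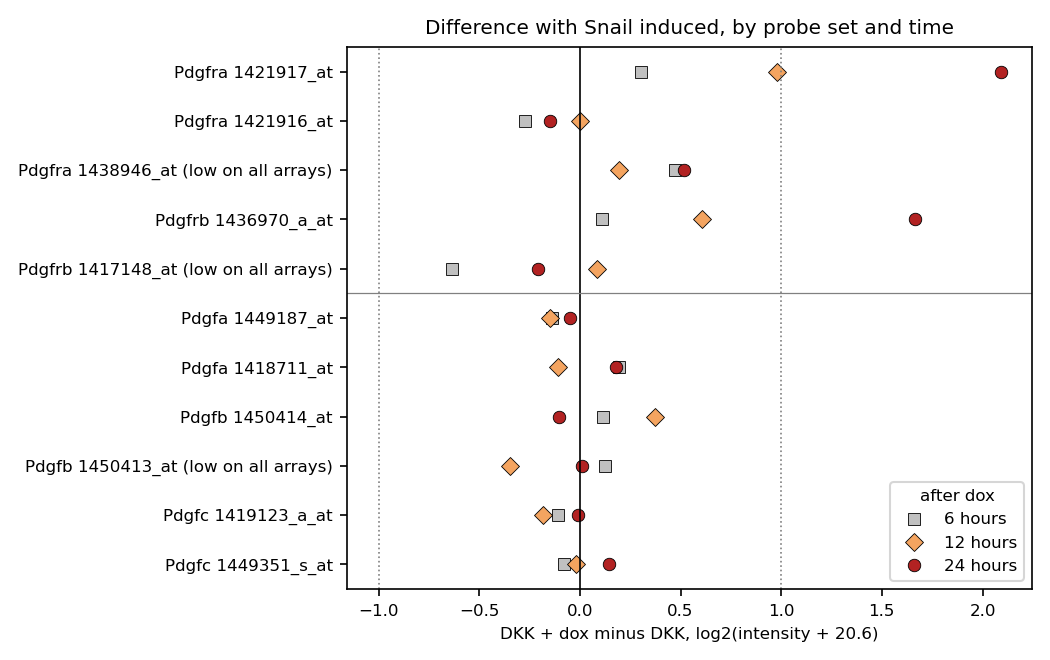
Difference between DKK + dox and DKK on the log2(intensity + 20.6) scale (horizontal axis) for the 11 probe sets, receptors above the line and ligands under it, with a point for each time after dox and dotted lines at 2-fold. The 24 hour points of 1 Pdgfra and 1 Pdgfrb probe set lie at 2.09 and 1.67, and all ligand points lie inside the dotted lines.

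The probe sets of each receptor did not tell the same story. Pdgfra 1421916_at was designed from the same sequence record as 1421917_at, yet it read 74.1, 1 and 24.2 in DKK + dox, against 93.8, 1 and 29.0 in DKK. Its conditions ran together, both 12 hour arrays were at the lowest value of 1, and only the 6 hour arrays exceeded the limit. The differences were -0.27, 0 and -0.15, and the fitted value was -0.16 (SE 0.27, adjusted p = 0.770 from limma). Over the 6 arrays its log2 values correlated with those of 1421917_at with a Pearson r of 0.49, given as a description. The value 1 is the lowest in the deposited table, so the 12 hour readings have no order.

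The third Pdgfra probe set, 1438946_at, was low on all 6 arrays and was not tested. It read 25.1, 8.51 and 20.6 in DKK + dox, against 12.3, 4.87 and 8.22 in DKK, so DKK + dox was higher at each time, by 0.47, 0.19 and 0.52. With no filter on low signal its fitted value was 0.56 (adjusted p = 0.311 from limma). Pdgfrb 1417148_at was low on all arrays as well, at 8.23, 22.3 and 17.4 in DKK + dox, against 24.2, 19.8 and 23.2 in DKK. Its differences changed sign (-0.64, 0.09 and -0.21), and its unfiltered fit gave -0.25 (adjusted p = 0.738 from limma). Thus 1 of 3 Pdgfra and 1 of 2 Pdgfrb probe sets rose, 1 tested Pdgfra probe set did not pass, and the remaining 2 had too little signal to test.

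On the array, probe sets of 1 gene often fell on different sides of the threshold, but seldom lay as far apart as those of Pdgfra. Among 6708 genes with at least 2 tested probe sets, the fitted differences of a gene's probe sets spanned a median of 0.26, with a 90th percentile of 0.78 and a 99th percentile of 1.67. Pdgfra spanned 2.19, at percentile 99.6. The ligands with 2 tested probe sets were near the median, at 0.25 for Pdgfa and 0.19 for Pdgfc. Of the 867 such genes with at least 1 probe set that rose, 711 (82.0%) also had one that did not rise. That count takes in every probe set that missed the threshold, however close its fitted value.

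Pdgfa encodes the A chain ligand. Probe set 1449187_at, above the limit on all 6 arrays, had 216, 131 and 96.0 in DKK + dox, against 240 and 147 at 6 and 12 hours and 100 at 24 hours in DKK. The DKK + dox array was a little lower at each time, by 0.14, 0.15 and 0.05, and the fitted value was -0.12 (SE 0.17, adjusted p = 0.727 from limma). Probe set 1418711_at had 109, 51.5 and 39.9 in DKK + dox, against 92.4, 57.2 and 32.8 in DKK, with a fitted value of 0.13 (SE 0.22, adjusted p = 0.778). Its differences changed sign over the 3 times, and the probe sets of the gene differed in sign while neither passed.

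Pdgfc, a ligand that is secreted in latent form and cleaved outside the cell, was above the limit on all 6 arrays on both of its probe sets. Probe set 1419123_a_at had 362, 154 and 139 in DKK + dox, against 392, 177 and 140 in DKK, with a fitted value of -0.10 (SE 0.16, adjusted p = 0.764 from limma). Probe set 1449351_s_at, of a type that can match related transcripts, had 204, 121 and 117 in DKK + dox, against 216, 123 and 104 in DKK, with a fitted value of 0.09 (SE 0.17, adjusted p = 0.809). The conditions differed by at most 0.18 at any time on either.

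Pdgfb, the B chain ligand that binds both receptors, was near or under the limit. Probe set 1450414_at had 48.3, 50.4 and 46.5 in DKK + dox, against 42.9, 34.3 and 51.4 in DKK, and its fitted value was 0.09 (SE 0.26, adjusted p = 0.881 from limma). The conditions crossed, with DKK + dox higher at 6 and 12 hours and lower at 24 hours. Probe set 1450413_at was low on all 6 arrays, at 26.5, 16.8 and 15.4 in DKK + dox, against 22.6, 27.0 and 15.1 in DKK, and was not tested. The standard errors of the 5 tested ligand probe sets, 0.16 to 0.26, are the precision behind their calls, and a p that misses the threshold does not show that a ligand was unaffected.

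With and without dox, Pdgfa and Pdgfc were lower at 24 than at 6 hours. The log2 change of the Pdgfa probe sets was -1.02 and -1.10 in DKK + dox, against -1.11 and -1.08 in DKK. For Pdgfc it was -1.26 and -0.71 in DKK + dox, against -1.36 and -0.93 in DKK. Pdgfb moved little on its tested probe set, by -0.04 in DKK + dox and 0.18 in DKK, the first of which turned to 0.04 with quantile normalization. Of the 8 tested member probe sets, the 24 hour value was 2-fold or more under the 6 hour value on 4 in DKK + dox (against 3.27% of all tested) and on 5 in DKK (against 3.77%). In each condition these were both Pdgfa probe sets, Pdgfc 1419123_a_at and Pdgfra 1421916_at, joined in DKK by Pdgfra 1421917_at. Several lay close to 2-fold. With an offset at the 40th percentile 1 was past it in DKK + dox and 3 in DKK, with median centering 3 and 3, and with quantile normalization 4 and 3. No test was made between times. From 12 to 24 hours alone, the Pdgfc probe sets changed by -0.13 and -0.05 in DKK + dox, against -0.30 and -0.21 in DKK, so most of their decline lay between the 6 and 12 hour arrays. Pdgfa kept declining over that interval, with changes of -0.37 and -0.25 in DKK + dox, against -0.48 and -0.54 in DKK.

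**Figure D3:**
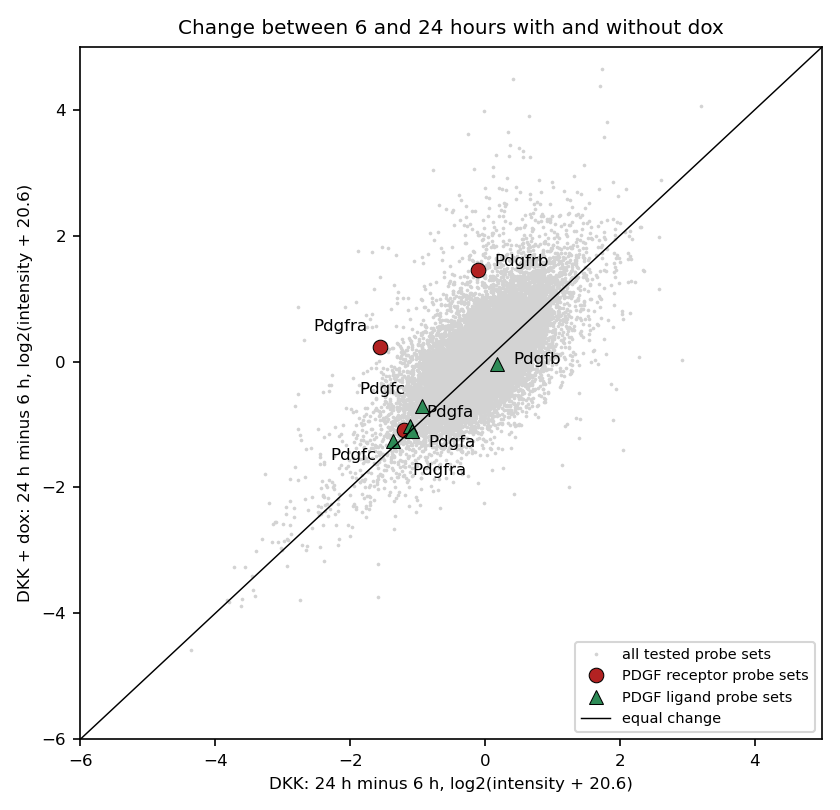
Log2 change between 6 and 24 hours in DKK + dox (vertical axis) and DKK (horizontal axis) for all 26362 tested probe sets in gray, with the 3 receptor probe sets as red circles, the 5 ligand probe sets as green triangles and a line of equal change. Pdgfa, Pdgfb and Pdgfc lie near the line, while Pdgfra 1421917_at (0.22 in DKK + dox, -1.56 in DKK) and Pdgfrb 1436970_a_at (1.46 in DKK + dox, -0.10 in DKK) lie above it.

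On the scale of levels across arrays, the Pdgfa and Pdgfc probe sets ran in parallel (Pearson r of 0.95 to 0.97 between them over the same 6 arrays), as did the pair for Pdgfa (0.97) and the pair for Pdgfc (0.99). The leading Pdgfra and Pdgfrb probe sets were less alike, with an r of 0.69. These values share arrays and time points, so they describe the shapes and carry no test.

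The 47 other genes of the pathway that were listed, with roles from ligand processing to early response genes, had 44 tested members. Of these, 12 rose, 2 fell and 30 did not pass. By the same choice of the brightest probe set per gene, 8.19% of all tested genes rose and 6.37% fell. Pdgfrl, which encodes a secreted protein resembling the receptor's outer part, was at 59.3, 87.5 and 156 in DKK + dox, against 46.1, 68.1 and 52.8 in DKK, and rose by 1.13 (SE 0.22, adjusted p = 0.0163 from limma). The fourth ligand, Pdgfd, exceeded the limit on the DKK + dox 24 hour array alone, at 37.7 against 20.6 in DKK, and did not pass (adjusted p = 0.639).

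Both listed co-receptors rose. Nrp1, a PDGF and VEGF co-receptor, read 65.5, 64.9 and 151 in DKK + dox, against 63.5, 30.5 and 22.9 in DKK, and rose by 1.80 (SE 0.26, adjusted p = 0.00508 from limma). Its conditions were level at 6 hours, and its DKK arrays were under the limit at 12 and 24 hours, as those of Pdgfra were. In DKK + dox it had no dip at 12 hours. Lrp1, an endocytic receptor that associates with PDGFRβ, rose by 0.96 (SE 0.20, adjusted p = 0.0209). Of the enzymes that process the ligands, the proprotein convertase Furin (fitted -0.21, adjusted p = 0.497) and the Pdgfc-cleaving protease Plat (0.87, adjusted p = 0.0566) did not pass, and Plau was low on all arrays.

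Of 17 proteins that bind the phosphorylated receptor or its adaptors, 6 rose and 11 did not pass. The 6 were the adaptors Shc1 and Nck2, the phosphoinositide 3-kinase subunit Pik3r1 (fitted 0.79), the phospholipase Plcg1 (0.63), the Ras GTPase-activating protein Rasa1 (0.49) and the kinase Fyn. Of 8 inhibitors, the ubiquitin ligase Cblb rose by 0.94 (adjusted p = 0.00766 from limma) and Spry1, a feedback inhibitor of receptor signaling, fell by 1.01 (adjusted p = 0.0360). Of 7 tested early response genes, Jun rose by 1.02 (adjusted p = 0.00470) and Egr1 fell by 0.53 (adjusted p = 0.0450), so these 2 transcription factors moved in opposite directions. All of these proteins also serve other receptors.

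The related class III receptors, which share the split kinase domain of the PDGF receptors, did not pass: Kit, Csf1r and Flt3 had adjusted p-values of 0.862, 0.926 and 0.586 from limma. Of their ligands, Kitl rose by 0.80 (SE 0.19, adjusted p = 0.0318), while Csf1 and Il34 did not pass. Pdgfra, Kit and Kdr (the VEGF receptor) are adjacent genes in that order in the RefSeq annotation. Kdr rose by 2.77 (SE 0.35, adjusted p = 0.00328), Pdgfra by 2.02, and Kit between them had a fitted value of -0.14. Kit was uneven, at 72.9, 35.8 and 128 in DKK + dox, against 84.3, 91.4 and 96.5 in DKK, with an SE of 0.38. The next genes on either side, Gsx2 before Pdgfra and Srd5a3 after Kdr, had fitted values of 0.21 and 0.24 and did not pass. Csf1r, which follows Pdgfrb, had a fitted value of 0.04 (SE 0.20).

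Markers of cell types known to carry PDGF receptors, and of others the cultures could hold, were read beside them. Of 12 primitive and parietal endoderm markers, 6 rose (Sox7, Sox17, Dab2, Col4a1, Col4a2 and Sparc) and 6 did not pass, among them the defining factors Gata4 and Gata6. In DKK all 12 were lower at 24 than at 6 hours, with a median of -0.99, beside -0.06 over all tested probe sets. Such a decline was not particular to this list. Medians of the other marker lists in DKK ran from -0.90 (visceral endoderm) to 0.07 (pluripotent and epiblast). In DKK + dox 7 of 12 were lower, with a median of -0.07. Sox7 read 276, 54.5 and 356 in DKK + dox, against 272, 53.9 and 25.1 in DKK, with the conditions level at 6 and 12 hours. The list's summed intensity was 6717, 4984 and 7111 in DKK + dox, against 6993, 4331 and 3689 in DKK. Sparc (2132 against 1259), Col4a1 (1184 against 383) and Col4a2 (662 against 191) carried most of the gap at 24 hours. Gata4 (52.3 against 35.6) and Gata6 (66.8 against 63.4) added little to it. Sox7, Sox17 and the collagens are also made by endothelium and other cells. Of 6 tested visceral endoderm markers 0 passed, and the sums were 3729, 1472 and 1127 in DKK + dox, against 4014, 1353 and 1051 in DKK. The part of these cells in the Pdgfra values was not tested.

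Of 8 lateral and cardiac mesoderm markers, 3 passed as higher and 5 did not pass. The 5 were Nkx2-5 (fitted 0.70), Hand1 (0.31), Hand2 (0.06), Tbx5 (-0.29) and Foxf1 (-0.45). Of these, Hand1 and Foxf1 exceeded the limit on all 6 arrays. Isl1, above the limit on all arrays, rose by 2.97. Mef2c and Tbx20 were under the limit on every DKK array and were tested only through the DKK + dox arrays where they were high, so at 24 hours they are firm only as at least 6.28-fold and at least 1.52-fold higher. The sums were 606, 801 and 1316 in DKK + dox, against 507, 368 and 402 in DKK. Isl1 (741 against 95.5) and Mef2c (234 against 9.34) carried most of the gap at 24 hours. Of 7 tested nascent and paraxial mesoderm markers, Tcf15 fell by 0.88. Foxc1 passed as higher, also only through DKK + dox arrays, and is firm as at least 6.89-fold at 24 hours. The other 5 did not pass. Mixl1 (fitted 0.52) was above the limit on all 6 arrays and higher in DKK + dox at each time. Meox1 had a fitted value of 0.22, against -0.25 for Mesp1, -0.41 for Mesp2 and -0.08 for Tbx6. Mesp1 exceeded the limit on only 3 arrays and Tbx6 on 1. The list's sums were 3126, 1190 and 956 in DKK + dox, against 3994, 1474 and 922 in DKK. Tcf15 carried most of these, and without it the sums were 521, 491 and 632 in DKK + dox, against 523, 335 and 382 in DKK. Of 5 neural crest markers, Sox9 rose by 3.69, Foxd3 fell by 0.65, and Sox10 and the others did not pass. The part of these cells in the receptor values was not tested.

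Beside Pdgfrb, 2 of 8 tested mural cell markers rose, Notch3 and the intermediate filament Des, and 6 did not pass. Of those 6, the contractile genes Acta2 and Tagln had fitted values of 1.09 and 0.56, and Anpep 0.17. Fitted values were under 0 for Rgs5 (-0.55, above the limit on 1 array), Cspg4 (-0.34, above it on all 6) and Mcam (-0.03). Kcnj8 and Abcc9, which mark brain pericytes, were low on all 6 arrays. The sums were 1481, 2360 and 3287 in DKK + dox, against 1564, 2225 and 1958 in DKK. Of 6 tested fibroblast markers 0 passed, and the other 4 (Postn, Lum, Prrx1 and Fap) were low on all arrays. The fibroblast sums ranged over 1626, 1260 and 1229 in DKK + dox, against 2067, 1031 and 1174 in DKK. Of the markers of the labelled ESCs, the pluripotency gene Pou5f1 was bright on all arrays (5672 to 6675 in DKK + dox, 6046 to 6764 in DKK), and of 10 pluripotent and epiblast markers 4 fell and 6 did not pass.

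**Figure D4:**
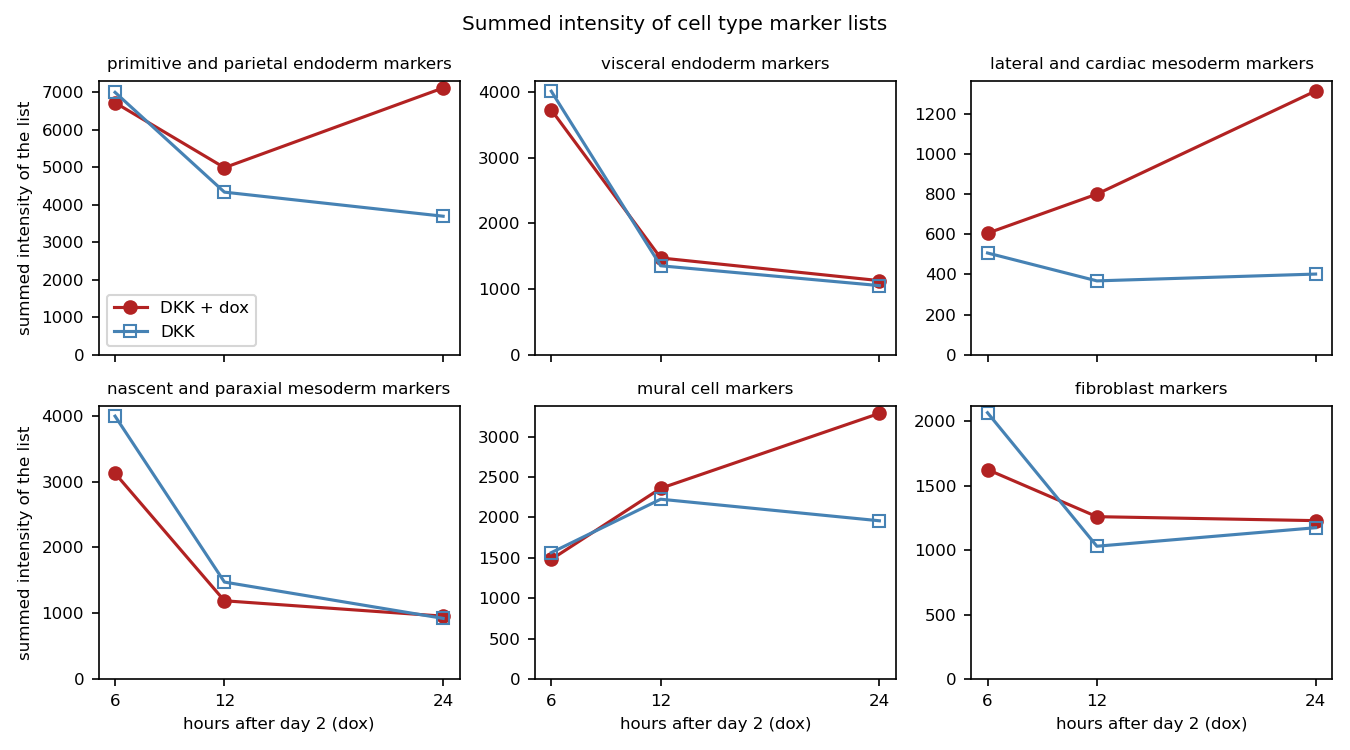
Summed intensity (linear axis from 0) of 6 marker lists against hours after dox, with DKK + dox as filled red circles and DKK as open blue squares, 1 array per point. The primitive and parietal endoderm sum reached 7111 in DKK + dox and 3689 in DKK at 24 hours, while the visceral endoderm sums lay at 1127 and 1051. Most of the gap in the first of these lists came from Sparc, Col4a1 and Col4a2.

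The genes with levels most like each member over the 6 arrays were ranked by Pearson r of their log2 values among 14772 genes with a tested probe set. For Pdgfra these were Cryz, Sel1l, Il6st, Nr2f1 and Abraxas2 (r of 0.990 to 0.997). Il6st, the shared receptor subunit of the interleukin 6 family, read 517, 408 and 563 in DKK + dox, against 511, 264 and 243 in DKK. The nuclear receptor Nr2f1 read 62.2, 42.3 and 77.8 in DKK + dox, against 59.6, 21.5 and 12.9 in DKK. Both showed the dip at 12 hours in DKK + dox and the loss in DKK. In all, 110 genes had an r above 0.95 with Pdgfra and 181 with Pdgfrb, which was closest to Map1lc3a, Il10rb, Mtmr6, Ctc1 and Phf7.

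Far more genes followed the ligands that were lower with time in both conditions: 573 had an r above 0.95 with Pdgfa and 789 with Pdgfc. The closest to Pdgfa were Prrc2c, Brd8, Tpd52l1, Mapt and Nedd4l, and the closest to Pdgfc were Suz12, B4galt5, Hbegf, Foxq1 and Upp1. Hbegf, an EGF family ligand, read 353, 74.7 and 61.5 in DKK + dox, against 360, 95.3 and 63.3 in DKK. Pdgfb had 11 such genes, led by 2300002M23Rik, Dhdds, Traf6, Eif2s3x and C2cd2. A likeness over 6 points that share 3 times and 1 treatment is easily had, and these counts describe the shapes alone.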

How the data were processed

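Gene expression in A2.Snail ESCs was read on 6 Affymetrix Mouse 430 2.0 arrays, 1 for each treatment at each time. dChip was used by the authors for normalization and modeling. The deposited intensities are linear, down to 1. Which dChip version and model they used is not given in the sources used here. Array medians were 53.5 to 63.7, and 37.5 to 41.3% of each array's probe sets did not exceed the low-signal limit. The number of arrays limits the precision. Of 45037 probe sets, 34945 carried 1 gene symbol, 932 several and 9160 none. By Entrez ID 34741 matched RefSeq GRCm38.p6, and 0 symbols changed.

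limma 3.58.1 in R 4.3.3 fitted log2(intensity + 20.6) with lmFit, and eBayes used an intensity trend. P-values are two-sided and adjusted by the Benjamini-Hochberg method over all tested probe sets. The fit was run on simulated arrays, with noise drawn from its own prior and added changes proportional to hours. It called 44% of log2 changes of 1 and 89% of log2 changes of 2. As the simulation followed the fitted model, it does not check that model, and many 2-fold changes would be missed. All member probe sets are named, up to 6 genes per list by size of the 24 hour difference, defining markers at low signal and the 5 genes most like each member. Other listed genes (such as Csf1r, Gata6 and Mesp2) and Il6st, Nr2f1 and Hbegf values were picked out after their values were seen. Flt3l and Brachyury (T) were not analysed here. Lists use each gene's probe set with the highest mean. Members and lists were chosen with earlier results of these data known. Alternatives varied the offset, filter, normalization, fold threshold, model and left-out time. Plots used matplotlib 3.10.9 (Python 3.11.15).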

Additional observations from a re-analysis of the deposited data

Results flagged for a closer look

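On 2 tested ligand probe sets the difference with dox had opposite signs at 6 and 24 hours, although both were small. Pdgfb 1450414_at had a DKK + dox minus DKK difference of 0.117 at 6 hours and -0.102 at 24 hours on the log2 scale. Pdgfc 1449351_s_at had -0.0767 at 6 hours and 0.143 at 24 hours, but its 6 hour value turned to 0.0178 with quantile normalization and 0.00423 with arrays centered on the median, so the sign then no longer differed. Each value compares 2 arrays, and the difference between the times was not tested.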

How the results depend on the processing

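Over 100 alternative fits of single member probe sets, 91 kept their direction and their side of the threshold, 6 kept the direction but no longer passed and 3 changed sign. Most of the 100 belonged to probe sets that had not passed in the main fit and so had no call to lose. The 6 that no longer passed were all fits of the 2 that had, Pdgfra 1421917_at and Pdgfrb 1436970_a_at. Their fitted values were 1.12 and 0.79 with a difference constant over the 3 times, 2.02 and 1.52 with linear time, and 1.81 and 1.06 without the 24 hour pair. In these 3 settings the count of members that rose was 0 in place of 2. Those that changed sign had not passed: Pdgfa 1418711_at gave -0.0213 and Pdgfc 1449351_s_at -0.0901 without the 24 hour pair, and Pdgfb 1450414_at gave -0.0687 without the 12 hour pair. Over all probe sets, 1796 rose and 1350 fell. The counts were 32 and 127 with a constant difference, 216 and 125 with linear time, 434 and 896 without the 24 hour pair, and 397 and 128 where no intensity trend was used. With no trend the 2 receptor probe sets passed only narrowly. Their adjusted p-values from limma were then 0.0388 for Pdgfra and 0.0426 for Pdgfrb, in place of 0.00171 and 0.00664. Without the 6 hour pair 888 fell. The 2-fold counts under other settings took in all 11 member probe sets, also the 3 that were low on every array and not tested. At 6 hours 1 was 2-fold lower in DKK + dox with an offset of 1, and 1 past 1.5-fold. In both cases this was the untested Pdgfrb 1417148_at (-1.45 with that offset). At 24 hours an offset of 1 gave 3 that were 2-fold higher in place of 2, the added one being the untested Pdgfra 1438946_at (1.23). At 12 hours 1 was 2-fold higher with an offset of 1, with quantile normalization or with arrays centered on the median, and 2 were past 1.5-fold. From 6 to 24 hours, with an offset at the 40th percentile, 1 was 2-fold lower in DKK + dox in place of 4. In DKK 3 were 2-fold lower in place of 5 with that offset, quantile normalization or median centering. The cause of these shifts was not tested. Signal limits 3 of the 11 probe sets, which were low on every array. The level for each time already pairs the DKK + dox and DKK arrays of that time, and no replicate number pairs them further.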
